A study of Mus musculus with 8 samples.

Results

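Ceramide synthase genes and the genes that supply, modify and export ceramide for epithelial barriers were followed in the cheek epithelium of young and adult mice. The group held 10 genes chosen by name, the ceramide synthases Cers2, Cers3, Cers4, Cers5 and Cers6 together with Sptlc2, Degs2, Ugcg, Elovl4 and Abca12. Of these, 9 had a row among the 23355 genes of the count table, and Degs2 was not analysed here. Total RNA had been sequenced from sorted epithelial cells of the buccal mucosa of wild type C57BL/6 mice kept specific pathogen free and left untreated. There were 4 adult animals of 8 weeks and 4 postnatal animals of 1 week, with 1 library per animal (8 weeks 1 to 8 weeks 4 and 1 week 1 to 1 week 4). The sorting gate and the animals' sex are not in the labels. The comparison asked how expression differed between adult and young epithelium.

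Ceramides are made in the endoplasmic reticulum. Serine palmitoyltransferase, of which Sptlc2 encodes a subunit, makes the sphingoid base, ceramide synthases attach a fatty acid to it, and desaturases such as Degs1 and Degs2 finish the base. The ceramide synthases differ in the fatty acid they prefer, from the long chains used by Cers5 and Cers6 through those of Cers4 and the very long chains of Cers2 to the ultra-long chains of Cers3, which the elongase Elovl4 supplies. In stratified epithelia Ugcg adds glucose to ceramide, the transporter Abca12 loads the product into lamellar granules, and the lipid released from them seals the space between the upper cells. Mice without Cers3, Elovl4 or Abca12 die of a leaky skin barrier after birth.

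The libraries held 13037171 to 16807773 counts at 8 weeks and 11747783 to 13169992 at 1 week. Keratins of stratified epithelium were abundant, with Krt5 of basal cells at 8430 ± 1880 CPM at 8 weeks and 11100 ± 1060 CPM at 1 week, and Krt13 of upper oral layers at 8210 ± 850 and 7690 ± 808 CPM (SD, n = 4 each). CPM are counts scaled to the size of the library, so that libraries of different depth can be compared. The collagen genes Col1a1, Col1a2 and Col3a1 stood at 1.13 CPM or less in every library and Pdgfra at 0.373 CPM or less. Lum was not analysed here. The matrix gene Dcn, the 1 tested gene of 6 fibroblast markers, was lower at 8 weeks, at 540 CPM against 987 CPM at 1 week (log2 fold change -0.87, edgeR adjusted p = 0.0231). The list summed to 398 to 773 CPM at 8 weeks against 921 to 1160 CPM at 1 week. Nearly all of this sum was Dcn, with 397 to 773 CPM and 920 to 1160 CPM, so it describes that gene alone. Of 4 tested erythroid markers 3 were higher, the haemoglobin genes Hba-a1, Hba-a2 and Hbb-bs (log2 fold changes of 2.73, 2.68 and 2.47), and the 4 together summed to 21.1 to 66.2 CPM at 8 weeks against 3.37 to 12.2 CPM at 1 week. No tested marker of basal, suprabasal or cycling keratinocytes, leukocytes, endothelium, melanocytes, sebaceous or salivary gland was called in edgeR, and the markers of muscle were too low to test. At an unadjusted p under 0.05, 2 of 6 basal markers were higher and 2 lower, 1 of 5 suprabasal and 1 of 5 cycling markers were higher and 1 of 2 leukocyte markers was lower. The DESeq2 Wald test called Krt5 and Krt14 lower at 8 weeks and Itgb4, Krt4 and Top2a higher. In the authors' deposited DESeq2 values Krt14 was lower (adjusted p = 0.00724) and Krt4 higher (adjusted p = 0.035), and Krt5, Itgb4 and Top2a were not under 0.05. The part of these cells in the results below was not tested. In such samples fewer cells of a type and less RNA per cell cannot be told apart.

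Of 14533 genes tested, 952 (6.55%) differed between the ages at an adjusted p under 0.05 in edgeR, 484 higher at 8 weeks (3.33%) and 468 lower (3.22%). With scaling by library size alone, which put the median log2 fold change of all genes at 0.09, 593 were higher and 255 lower, and with a correction for transcript length and GC content 150 were higher and 256 lower. Among the 9 barrier lipid genes, 2 were higher at 8 weeks, Cers4 and Cers6, none was lower, and 7 were not called. At an unadjusted p under 0.05 Cers3 was higher as well and none was lower, beside 13.5% of all genes higher and 14.3% lower. The Wald test of DESeq2 called these 3, beside 6.93% of all genes higher and 7.59% lower. The median log2 fold change was 0.06 over these 9 genes and -0.002 over all genes tested. The libraries of the 2 ages did not overlap for 3 of the 9 genes, Cers3, Cers4 and Cers6, and for 14.8% of all genes tested. Cers4 and Cers6 were called with each of the 8 libraries left out in turn, although the count of all genes called was 136, 1891, 91 and 376 without 8 weeks 1, 2, 3 and 4, and 130, 634, 719 and 774 without 1 week 1, 2, 3 and 4.

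**Figure D1:**
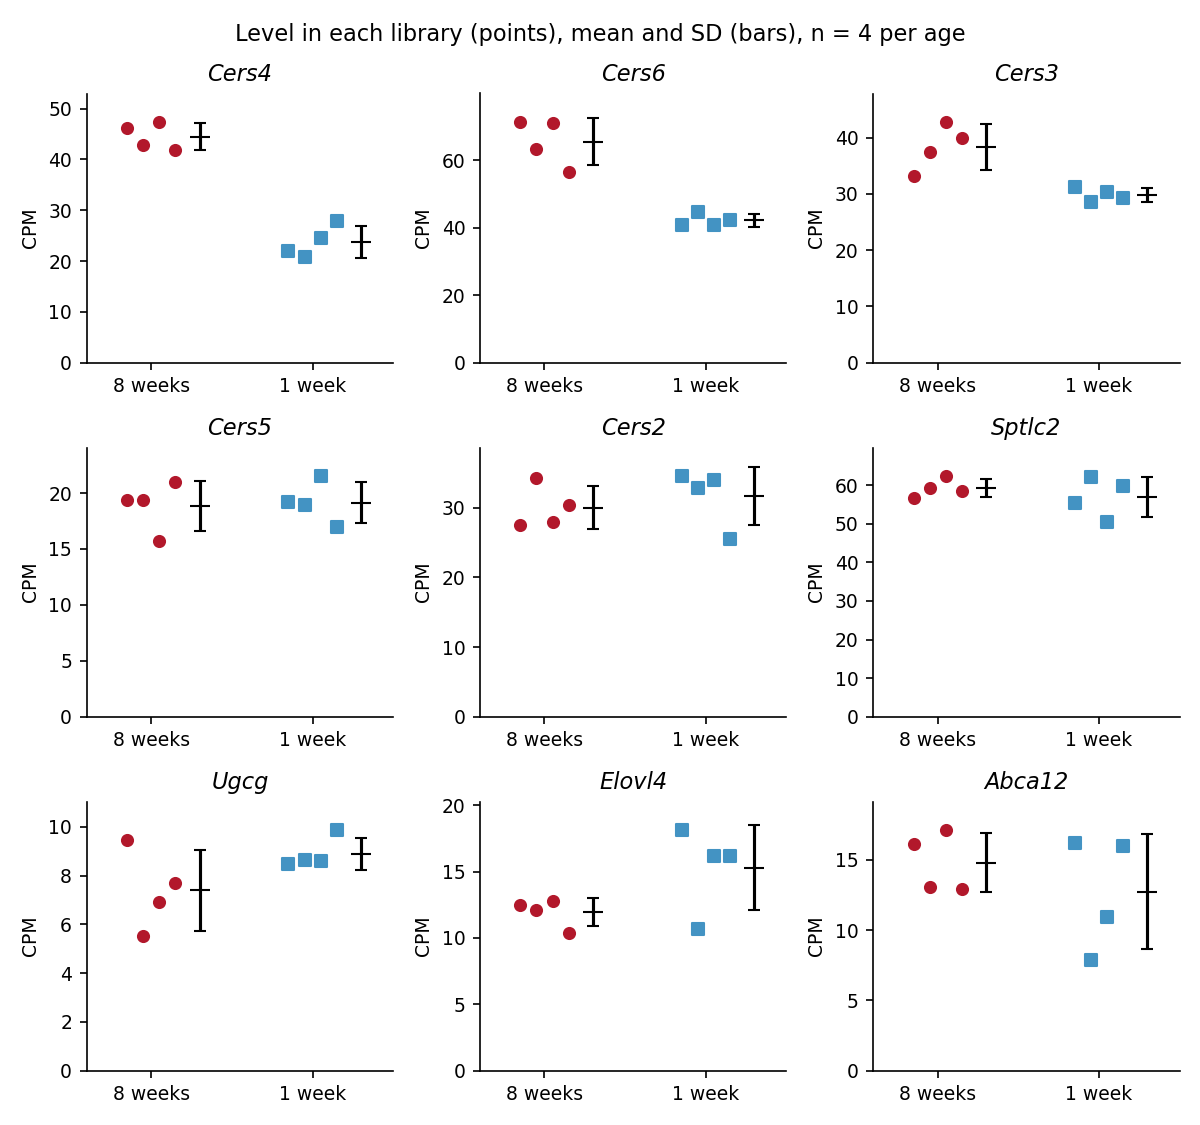
Level of each of the 9 measured genes in every library, in CPM on axes that start at 0, at 8 weeks (red circles) and 1 week (blue squares), n = 4 libraries per age. Black bars are the mean and SD, and the libraries of the 2 ages are apart for Cers4, Cers6 and Cers3 and overlap for the other 6 genes.

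The 3 genes whose ages did not overlap are all ceramide synthases, and they lie on different chromosomes. Cers4 (ENSMUSG00000008206) is at chr8:4493026-4531680, Cers6 (ENSMUSG00000027035) at chr2:68861441-69114282 and Cers3 (ENSMUSG00000030510) at chr7:66743504-66823691, all on the plus strand of GRCm38. Their promoters are shown because these are the genes in which the ages were apart. Each window runs 5′ to 3′ from 250 bases before the RefSeq start site to 50 bases after it, on the plus strand of GRCm38.p6, with matches to the motifs named after them in capitals. The windows are chr8:4493155-4493454 for Cers4, whose RefSeq start site lies 379 bases inside the deposited gene, chr2:68861191-68861490 for Cers6 and chr7:66743254-66743553 for Cers3.
Cers4: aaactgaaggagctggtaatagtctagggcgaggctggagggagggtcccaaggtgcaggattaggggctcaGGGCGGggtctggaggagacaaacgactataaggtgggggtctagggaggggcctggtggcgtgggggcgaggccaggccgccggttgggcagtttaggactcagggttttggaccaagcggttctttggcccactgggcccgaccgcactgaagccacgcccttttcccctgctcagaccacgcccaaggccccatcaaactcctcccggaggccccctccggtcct
Cers6: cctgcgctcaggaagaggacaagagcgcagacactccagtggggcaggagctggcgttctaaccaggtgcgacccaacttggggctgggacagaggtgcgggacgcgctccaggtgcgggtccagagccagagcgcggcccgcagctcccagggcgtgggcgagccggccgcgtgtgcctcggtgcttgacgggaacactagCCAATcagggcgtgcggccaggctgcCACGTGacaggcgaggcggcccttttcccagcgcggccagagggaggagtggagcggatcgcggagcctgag
Cers3: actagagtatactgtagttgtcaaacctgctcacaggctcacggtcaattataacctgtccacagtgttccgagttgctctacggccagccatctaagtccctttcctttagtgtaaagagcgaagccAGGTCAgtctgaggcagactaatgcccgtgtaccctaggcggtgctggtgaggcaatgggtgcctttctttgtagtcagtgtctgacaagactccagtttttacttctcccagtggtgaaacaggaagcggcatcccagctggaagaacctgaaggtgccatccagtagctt
A set of 8 motifs was searched on both strands. The Cers4 window held a GC box, with the letters GGGCGG, at position -178 from the start site, a motif found in 35.7% of 32851 promoters of the same length. The Cers6 window held a CCAAT box at position -48 (searched by those letters, 37.4% of promoters) and an E-box, searched as CACGTG, at position -22 (7.15%). The Cers3 window held a nuclear receptor element, AGGTCA, at position -122 (16.3%). None of the 8 motifs was in more than 1 of the 3 windows. The motifs found were also in windows of members whose ages overlapped. A GC box was in those of Cers2, Cers5, Elovl4, Sptlc2 and Ugcg, and a CCAAT box in those of Cers2, Elovl4 and Sptlc2. CACGTG was in those of Cers2 and Elovl4, and AGGTCA in another window of Cers2. The TATA box, searched as TATAAA (13.6% of promoters), was in none of the 3 windows of Cers4, Cers6 and Cers3. Nor was the AP-1 site, searched as TGANTCA (7.81%), the CACCC element, searched as CCACCC (31.5%), or the Grainyhead site, searched as AACCGGTT (0.146%). The CACCC element was in windows of Cers2, Cers5 and Sptlc2. The windows also differed in composition, with 64.3% G and C and 14 CpG in Cers4, 70.0% and 28 in Cers6, and 50.7% and 7 in Cers3, against medians of 52.7% and 7 over all promoters. These matches describe the letters of the windows and no binding was measured.

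Cers4, the synthase for chains of intermediate length and a gene whose loss costs mice their hair with age, differed most. It stood at 46.1, 42.8, 47.3 and 41.8 CPM in the libraries of 8 weeks, against 22, 20.7, 24.5 and 27.8 CPM in those of 1 week. The lowest library of 8 weeks was well above the highest of 1 week. Cers4 rose 1.88-fold at 8 weeks, to 44.5 ± 2.64 CPM against 23.7 ± 3.13 CPM at 1 week (SD, n = 4 each), a log2 fold change of 0.91 (SE 0.11, 95% interval 0.67 to 1.15, edgeR adjusted p = 0.00269). With 1 library left out the log2 fold change was 0.85 to 0.99 (highest adjusted p = 0.0119). Exons of Cers4 share 886 bases with the pseudogene Vmn2r-ps89 and 214 bases with Gm36956, both on the opposite strand, and the counting may include reads of either strand, since its strand setting is not known.

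Cers6, one of the synthases for the shorter chains, drew the most counts of the 5, 6111 over the 8 libraries. Its levels were 71.3, 63.3, 71.1 and 56.7 CPM at 8 weeks, against 40.9, 44.8, 40.7 and 42.4 CPM at 1 week. The libraries of 1 week lay close together, and each library of 8 weeks was above them. Cers6 rose 1.56-fold at 8 weeks, to 65.6 ± 7 CPM against 42.2 ± 1.87 CPM at 1 week (SD, n = 4 each), a log2 fold change of 0.64 (SE 0.10, 95% interval 0.42 to 0.86, edgeR adjusted p = 0.00962). With 1 library left out it was 0.60 to 0.70 (highest adjusted p = 0.039). No exon of Cers6 shares bases with an exon of another annotated gene.

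Cers3, the synthase of the ultra-long-chain ceramides of the barrier, was separated between the ages by a smaller margin. It was at 33.2, 37.5, 42.7 and 40.0 CPM at 8 weeks, against 31.2, 28.5, 30.4 and 29.2 CPM at 1 week. The lowest library of 8 weeks, 8 weeks 1, stood just above the highest of 1 week. The mean was 38.4 ± 4.04 CPM at 8 weeks and 29.9 ± 1.21 CPM at 1 week (SD, n = 4 each), with a log2 fold change of 0.36 (SE 0.10, 95% interval 0.14 to 0.59). The edgeR adjusted p of 0.055 missed the threshold, and the unadjusted p was 0.00407. In the authors' deposited table, where 6.61% of 23261 genes with an adjusted p were under 0.05, Cers3 was under it (log2 fold change 0.37, adjusted p = 0.0401), as were Cers4 (0.91, 1.36e-09) and Cers6 (0.64, 7.99e-06), and the other 6 genes were not.

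Cers2 and Cers5 showed no such separation. Cers2, the synthase for very long chains that is broadly expressed (ENSMUSG00000015714, chr3:95314791-95323599), was at 27.5, 34.2, 28 and 30.4 CPM at 8 weeks, against 34.5, 32.8, 34.0 and 25.5 CPM at 1 week. The 2 ages overlapped over nearly the whole range, and the log2 fold change was -0.08 (SE 0.12, 95% interval -0.34 to 0.18, edgeR adjusted p = 0.697). Exons of Cers2 share 144 bases with the antisense gene 6330562C20Rik and 75 bases with Setdb1, both on the opposite strand. Cers5, which prefers the same long chains as Cers6 (ENSMUSG00000023021, chr15:99734881-99772885), was at 19.4, 19.4, 15.7 and 21 CPM at 8 weeks, against 19.2, 18.9, 21.5 and 17 CPM at 1 week. Its log2 fold change was -0.02 (SE 0.13, 95% interval -0.31 to 0.26, edgeR adjusted p = 0.925), so a change as large as that of Cers6 lay outside the interval. No stretch of 50 bases is shared between the annotated transcripts of any 2 of the measured genes.

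Set against each other within a library, the 5 synthases differed in how far their mean ratios moved between the ages, and no pair passed the threshold after adjustment. The log2 ratio of the CPM of 2 genes does not depend on the scaling of the library, and all 10 pairs were compared by a two-sided exact permutation test, which with 4 against 4 libraries cannot go below p = 0.029. The ratio of Cers4 to Cers2 averaged 0.57 at 8 weeks and -0.42 at 1 week, a difference of 0.99 (exact p = 0.029, 0.0571 after Benjamini-Hochberg adjustment over the 10 pairs). It ran from 0.32 to 0.76 over the libraries of 8 weeks and from -0.67 to 0.13 over those of 1 week. The ratio of Cers4 to Cers5 differed by 0.94, that of Cers6 to Cers2 by 0.71, that of Cers6 to Cers5 by 0.66 and that of Cers4 to Cers3 by 0.56. Each of these 5 pairs was without overlap and had the smallest p that the test can give. With 5 of 10 pairs at that floor the adjusted p is 0.0571 for each, whatever the size of its difference. The adjusted values therefore do not weigh how large these differences were. With the length and GC offset the differences were smaller, at 0.59 for Cers4 to Cers2, 0.59 for Cers4 to Cers5, 0.38 for Cers6 to Cers2, 0.38 for Cers6 to Cers5 and 0.24 for Cers4 to Cers3 (adjusted p from 0.0952 to 0.122, exact permutation test).

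The other 5 pairs overlapped between the ages. The ratio of Cers4 to Cers6 averaged -0.56 at 8 weeks and -0.84 at 1 week, a difference of 0.28 (exact p = 0.0571, adjusted 0.0714), so the fold changes of the 2 called genes were not told apart. The ratio of Cers6 to Cers3 differed by 0.28 (exact p = 0.0857, adjusted 0.0952) and by 0.038 with the length and GC offset, that of Cers3 to Cers2 by 0.43 and that of Cers3 to Cers5 by 0.38 (exact p = 0.0571, adjusted 0.0714, for both). Cers5 and Cers2 kept nearly the same ratio, -0.67 at 8 weeks and -0.72 at 1 week (exact p = 0.6).

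**Figure D2:**
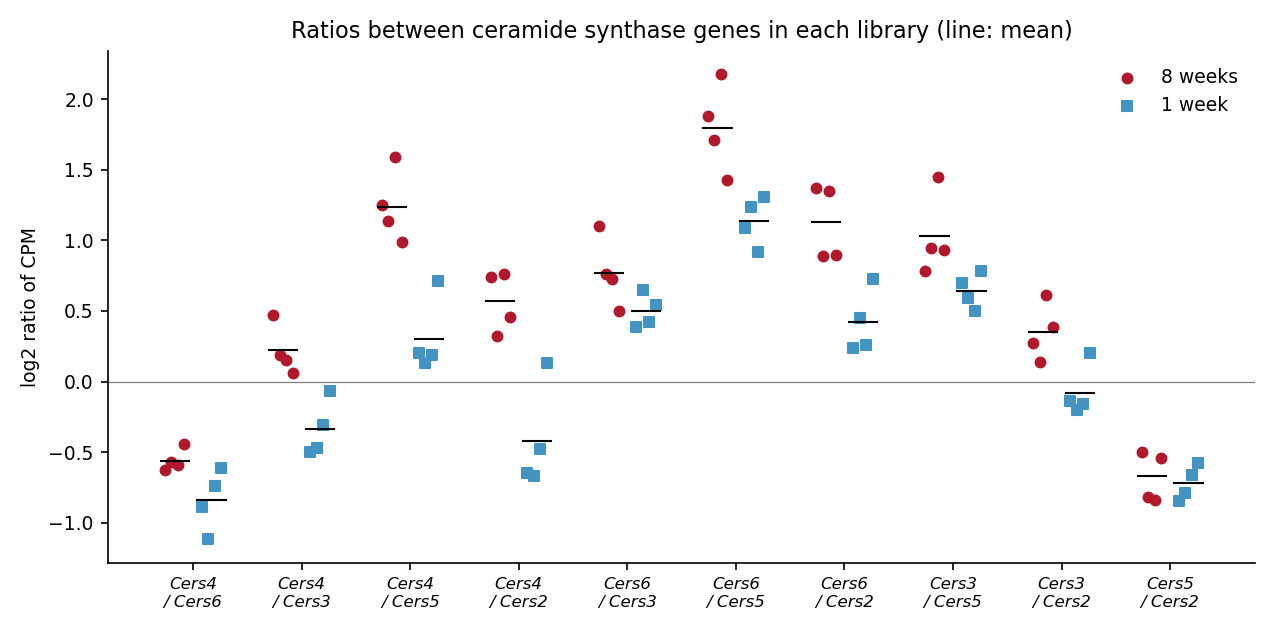
Log2 ratio of the CPM of 2 ceramide synthase genes in each library, for all 10 pairs, at 8 weeks (red circles) and 1 week (blue squares), with lines at the means of 4 libraries. The ages are apart where Cers4 is set against Cers3, Cers5 or Cers2 and where Cers6 is set against Cers5 or Cers2, and they lie together for Cers5 against Cers2.

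To compare levels between genes, CPM were divided by the annotated exon length in kilobases. On this scale Cers3 led the family at both ages, with 11.8 ± 1.24 CPM per kb at 8 weeks and 9.17 ± 0.37 at 1 week (SD, n = 4 each). At 8 weeks Cers2 (8.17 ± 0.831) and Cers6 (7.39 ± 0.789) followed with overlapping SD, then Cers5 (5.33 ± 0.639) and Cers4 (3.63 ± 0.215). At 1 week Cers2 (8.63 ± 1.15) stood within its SD of Cers3, Cers5 (5.41 ± 0.514) and Cers6 (4.75 ± 0.211) were next to each other, and Cers4 (1.94 ± 0.255) was the lowest. Cers4 and Cers6 have long transcripts, and per length the 2 called genes were not the leading synthases. The order at the top rests on the length used, since Cers2, whose longest annotated transcript is short, stood at 13.5 CPM per kb of that transcript at 8 weeks and 14.3 at 1 week, above Cers3 with 11.8 and 9.19.

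The 5 genes together summed to 35.0, 36.9, 37.0 and 36.3 CPM per kb at 8 weeks, against 30.8, 29.8, 31.3 and 27.8 at 1 week, without overlap. Of this sum Cers4 held 10% ± 0.689 at 8 weeks and 6.51% ± 1.15 at 1 week, and Cers6 held 20.4% ± 2.39 and 15.9% ± 1.31 (SD, n = 4 each). The share of Cers5 was 14.7% ± 1.94 at 8 weeks and 18.1% ± 0.927 at 1 week, again without overlap. The share of Cers2 was 22.5% ± 2.02 at 8 weeks and 28.8% ± 2.56 at 1 week, and that of Cers3 was 32.4% ± 2.78 and 30.7% ± 1.30, both with overlap. The lower share of Cers5 stood beside a CPM of 18.9 ± 2.26 at 8 weeks and 19.2 ± 1.82 at 1 week, since the sum it is divided by was larger. The sum and the shares use annotated exon length. Per kb of the longest transcript Cers2 stood above Cers3 at both ages, so the order of their shares rests on the length used.

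Sptlc2 (ENSMUSG00000021036, chr12:87305058-87388355), the catalytic subunit at the start of the pathway, had the smallest SE of the 9 genes. It was at 56.7, 59.2, 62.3 and 58.5 CPM at 8 weeks, against 55.4, 62.1, 50.4 and 59.9 CPM at 1 week, with a log2 fold change of 0.06 (SE 0.097, 95% interval -0.15 to 0.26, edgeR adjusted p = 0.741). Ugcg (ENSMUSG00000028381, chr4:59189257-59222833), the glucosylceramide synthase, was at 9.46, 5.52, 6.90 and 7.70 CPM at 8 weeks, against 8.48, 8.64, 8.61 and 9.86 CPM at 1 week. The libraries of 8 weeks were spread wider, and 8 weeks 1 lay within the range of 1 week. The log2 fold change of Ugcg was -0.26 (SE 0.20, 95% interval -0.68 to 0.16, edgeR adjusted p = 0.401), an interval that reaches from a decrease as large as the change of Cers6 to a slight increase.

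Elovl4 (ENSMUSG00000032262, chr9:83778692-83806277), the elongase that makes the acyl chains for Cers3, was at 12.5, 12.1, 12.8 and 10.4 CPM at 8 weeks, against 18.1, 10.7, 16.2 and 16.2 CPM at 1 week. Of the libraries of 1 week, 3 stood above all of 8 weeks and 1 week 2 did not. The log2 fold change was -0.35 (SE 0.17, 95% interval -0.72 to 0.02, edgeR adjusted p = 0.199), opposite in sign to that of Cers3. Abca12 (ENSMUSG00000050296, chr1:71242276-71414910), the lipid transporter of lamellar granules, was at 16.1, 13.1, 17.1 and 12.9 CPM at 8 weeks, against 16.2, 7.89, 10.9 and 16.0 CPM at 1 week. The libraries of 1 week fell into a high and a low pair that spanned nearly all of 8 weeks, and the log2 fold change was 0.22 (SE 0.21, 95% interval -0.24 to 0.69, edgeR adjusted p = 0.525). Per kb of exon Elovl4 was at 3.94 ± 0.358 CPM at 8 weeks and 5.05 ± 1.06 at 1 week, whereas Ugcg (1.42 ± 0.315 and 1.71 ± 0.124) and Abca12 (1.00 ± 0.143 and 0.861 ± 0.275) had the lowest means of the 9 genes at both ages (SD, n = 4 each). The SD of these 2 genes overlapped at 8 weeks, and that of Ugcg overlapped with Cers4 at 1 week.

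The ceramide synthases were also set beside the rest of the pathway. Of 53 further genes of ceramide and barrier lipid metabolism, 52 had a row (Elovl3 was not analysed here) and 44 passed the filter on low counts. In edgeR none was higher at 8 weeks, 1 was lower and 43 were not called, a count too small to be set apart from the 6.55% called over all genes. At an unadjusted p under 0.05, 2 were higher and 7 lower (13.5% and 14.3% of all genes). The DESeq2 Wald test called 5, all lower (Degs1, Elovl5, Hacd3, Sphk1 and Sptssa), where it called 7.59% of all genes lower, and limma-voom called Hacd3 alone, where it called 5.41% of all genes. Their median log2 fold change was -0.10 as counted, and 31 of the 44 values were below 0. Over all genes tested the median was -0.002, with quartiles of -0.238 and 0.243. Libraries of the 2 ages were apart for 4 of the 44 (14.8% of all genes), Hacd3, Pnpla1, Smpd2 and Sphk1. The 1 gene called, Hacd3, encodes a dehydratase of the fatty acid elongation cycle, and stood at 42.7, 47.3, 37.8 and 42.6 CPM at 8 weeks, against 56.4, 57.4, 54.0 and 51.8 CPM at 1 week. It fell by 0.37 on the log2 scale (SE 0.098, edgeR adjusted p = 0.0444), and with 1 library left out the log2 fold change was -0.31 to -0.43. The call held without 8 weeks 2, with adjusted p between 0.0531 and 0.145 without each of the other 7 libraries. With scaling by library size alone it was -0.27 (adjusted p = 0.163) and with the correction for length and GC content -0.26 (adjusted p = 0.0841).

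Elongation as a whole had 0 of 8 tested genes higher and 1 lower, with a median log2 fold change of -0.20 as counted. Corrected for length and GC content, the 8 log2 fold changes were -0.32, -0.26, -0.20, -0.03, -0.02, -0.01, 0.04 and 0.04, and none was called. Its genes with the highest CPM were Hsd17b12, the ketoacyl reductase of the cycle, at 98.4 ± 16.2 CPM at 8 weeks and 115 ± 9.53 CPM at 1 week, and Tecr, the enoyl reductase, at 95.1 ± 17 and 112 ± 16.6 CPM (SD, n = 4 each). Neither was called (edgeR adjusted p = 0.241 and 0.292). For the first step, serine palmitoyltransferase and its regulators, 0 of 7 genes were called and the median was -0.23 as counted. With the same correction the 7 values were -0.30, -0.13, -0.11, -0.06, 0.07, 0.11 and 0.49, and again none was called. Ormdl3, an inhibitor of the enzyme, was at 51.5 ± 4.93 CPM at 8 weeks and 60.6 ± 9.64 CPM at 1 week, and Sptlc1, the partner subunit of Sptlc2, at 49.9 ± 3.68 and 51.1 ± 2.86 CPM (adjusted p = 0.223 and 0.851). The steps on either side of the ceramide synthases showed a lower mean for Degs1, the desaturase that turns dihydroceramide into ceramide, with 44.2 ± 4.25 CPM at 8 weeks and 56.7 ± 6.76 CPM at 1 week (log2 fold change -0.36, edgeR adjusted p = 0.0676). After the correction for length and GC content Degs1 was at -0.18 (edgeR adjusted p = 0.286). Means were near-equal for the reductase Kdsr, with 43.7 ± 4.53 and 42.0 ± 4.13 CPM (edgeR adjusted p = 0.769). The brain and muscle synthase Cers1 and the fatty acid hydroxylase Fa2h were too low to test, with 18 and 11 counts over all 8 libraries.

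The genes of omega-hydroxylated and acylated ceramide, which work with Cers3 and Elovl4, were not called in any of 7 cases (median -0.11). The fatty acid omega-hydroxylase Cyp4f39 was at 51.8 ± 5.79 CPM at 8 weeks and 53.0 ± 1.18 CPM at 1 week, and Abhd5, a lipase co-activator, at 42.2 ± 2.38 and 45.7 ± 6.19 CPM (SD, n = 4 each; edgeR adjusted p = 0.865 and 0.53). Glucosylceramide and sphingomyelin turnover had 0 of 10 tested genes called (median -0.07), and its genes with the highest CPM were Psap, the precursor of the saposins that help glucosylceramide breakdown, and Gltp, a glycolipid transfer protein. Psap was at 248 ± 20.6 CPM at 8 weeks and 261 ± 23.9 CPM at 1 week, and Gltp at 116 ± 5.42 and 130 ± 16.6 CPM (adjusted p = 0.655 and 0.303). Ceramidases and sphingosine phosphate enzymes had 0 of 10 called (median -0.09), with the phosphatase Sgpp1 at 70.6 ± 4.11 CPM at 8 weeks and 74.2 ± 1.97 CPM at 1 week and the lyase Sgpl1 at 59.7 ± 6.36 and 64.0 ± 8.66 CPM (adjusted p = 0.624 and 0.606).

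**Figure D3:**
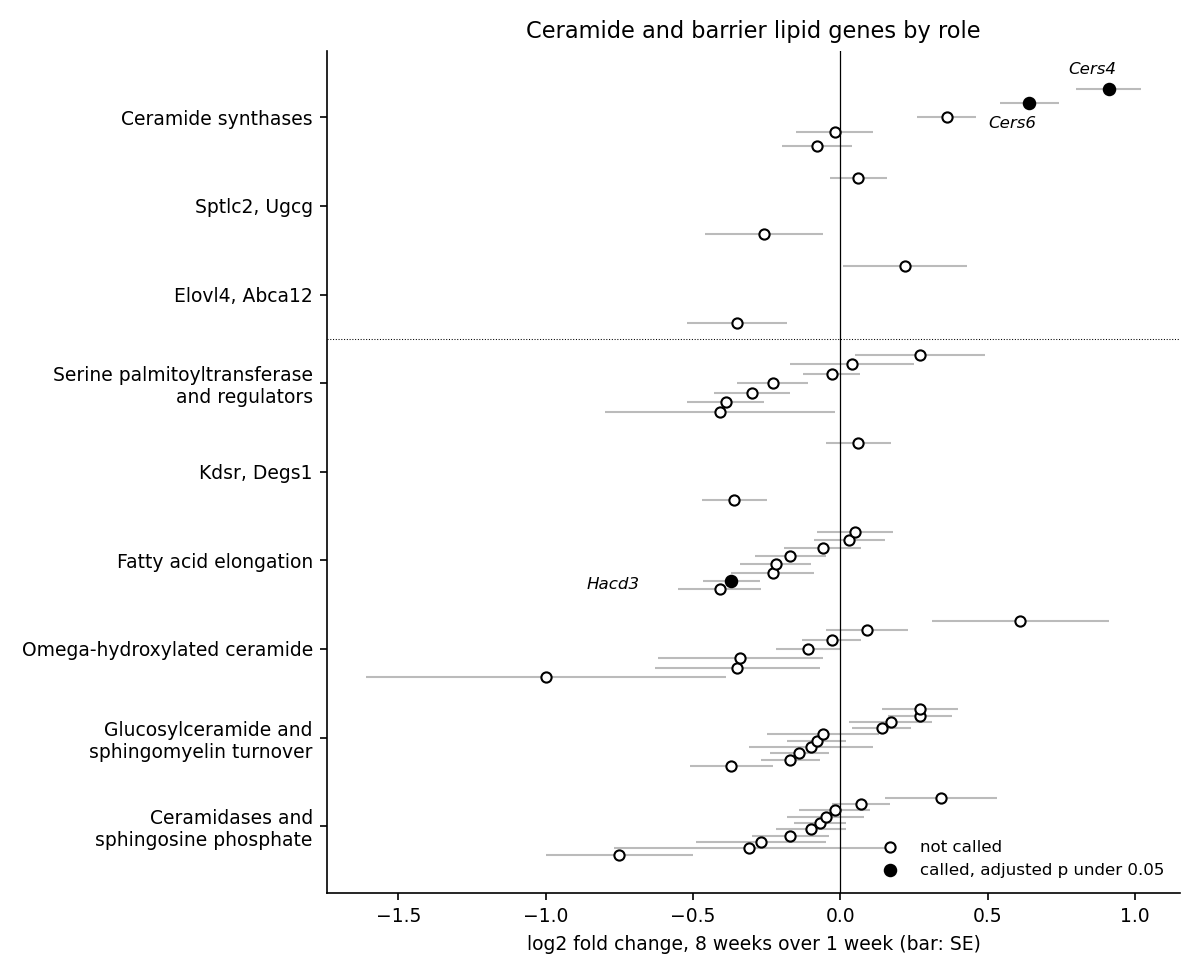
Log2 fold change (8 weeks over 1 week) of each tested gene, grouped by role, with bars of 1 SE from edgeR; the 9 barrier lipid genes are above the dotted line and the other 44 pathway genes below it. Filled points are called, which are Cers4 and Cers6 on the side of 8 weeks and Hacd3 on the other.

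Fold changes across all genes varied with transcript length, and the members differ in length. A slope on length was fitted in each library to the deviation of log2 CPM from the mean of the 8 libraries, over 10336 genes. In log2 units per doubling it was 0.199, -0.022, 0.149 and 0.034 in the libraries of 8 weeks, against -0.174, -0.047, -0.067 and -0.073 in those of 1 week. A slope near 0 is thus near that mean, and does not show a library free of a length trend. Cers4, Cers6, Sptlc2 and Abca12 fall in the longest of 5 classes of protein-coding genes (from 5406 bases), where the median log2 fold change was 0.21 and 12.3% of genes were called higher. In that class 2 of the 4 members were called. Cers3 and Elovl4 fall in the middle class (median -0.02), and Cers2 and Cers5 in the second shortest (median -0.11).

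With length and GC content as an offset in the fit, 2.79% of all genes were called, and of the 9 members again Cers4 and Cers6. Cers4 then had a log2 fold change of 0.64 (SE 0.10, edgeR adjusted p = 0.012) and Cers6 of 0.44 (SE 0.082, adjusted p = 0.0227), both smaller than as counted, while Cers3 had 0.41 (SE 0.10, adjusted p = 0.0504). Cers2 and Cers5 were at 0.05 and 0.06, Sptlc2 at -0.12, Abca12 at -0.06, Ugcg at -0.28 and Elovl4 at -0.27, none of them called. In 8 weeks 2 and 8 weeks 4, whose slopes were the nearest to 0 (-0.022 and 0.034), Cers4 was at 42.8 and 41.8 CPM and Cers6 at 63.3 and 56.7 CPM. These levels were above every library of 1 week. The slopes of 1 week were lower, from -0.174 to -0.047, and the part of length in these levels was not tested. With 8 weeks 1 and 8 weeks 3, the libraries with the steepest slopes at that age, both left out, 12 genes were called in all and neither Cers4 (0.84, adjusted p = 0.0536) nor Cers6 (0.52, adjusted p = 0.139) was among them. Without 1 week 1 and 1 week 4, 60 genes were called, Cers4 among them, and Cers6 was not (0.62, adjusted p = 0.0703). Each of these 2 settings leaves 2 libraries of an age against 4. With all 8 libraries the log2 fold changes as counted were 0.91 for Cers4 and 0.64 for Cers6.

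**Figure D4:**
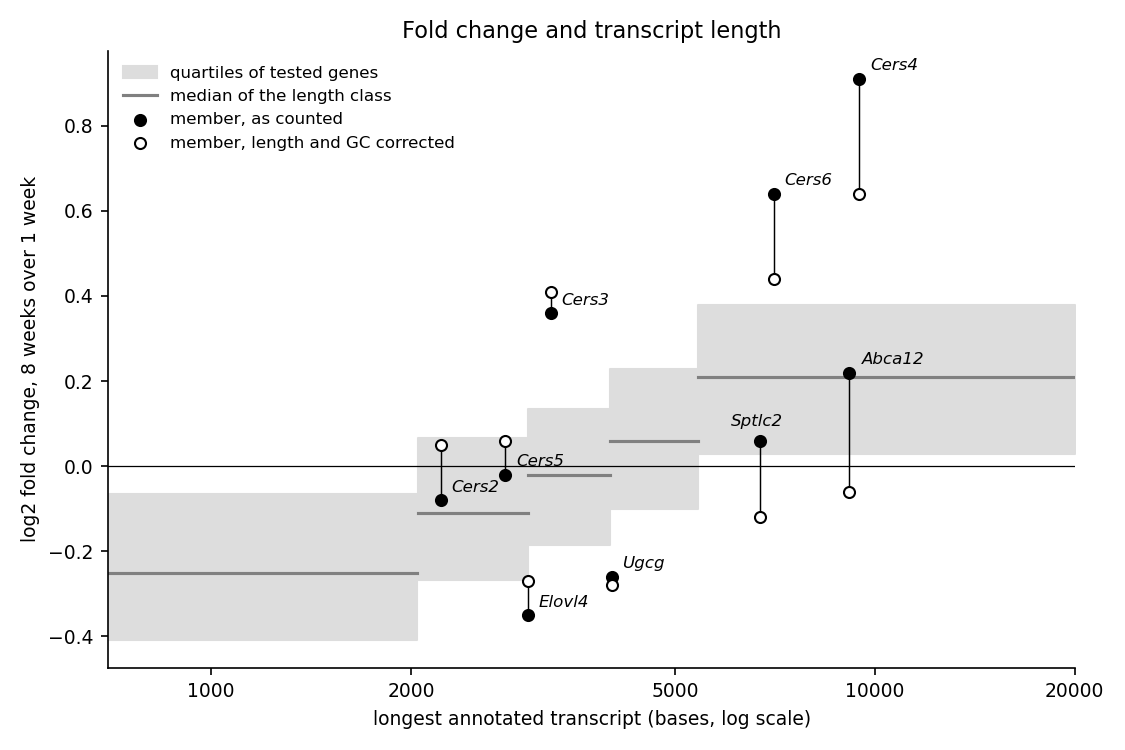
Log2 fold change (8 weeks over 1 week) of the 9 members against the length of their longest annotated transcript on a log axis, as counted (filled) and with the correction for length and GC content (open), over the span between the quartiles (grey) and median (line) of the tested protein-coding genes in 5 length classes. Cers4 and Cers6 lie above the grey range of the longest class, where the median is 0.21, and Cers3 lies above that of the middle class.

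Across the 8 libraries the genes most like Cers4 among 10025 searched, by Pearson's r of log2(CPM + 1), were Plekha6 (0.992), Epas1 (0.989), Dsp and Lrba (0.979 each) and Gga2 (0.974). Of these, 4 were also called higher at 8 weeks, Plekha6, the hypoxia-inducible transcription factor gene Epas1, Lrba and Gga2, with log2 fold changes of 1.47, 1.11, 0.35 and 0.33. Dsp, the desmosome protein desmoplakin, was abundant, at 7360 CPM at 8 weeks and 6100 CPM at 1 week, and was not called (0.27, edgeR adjusted p = 0.195). The genes most like Cers3 were Krt4 and Gprin2 (0.969 each), Gipc2 (0.961), Exoc7 (0.959) and Rab3gap1 (0.954). Krt4, a keratin of the upper layers of oral epithelium, was at 4770 CPM at 8 weeks and 3840 CPM at 1 week (log2 fold change 0.31, edgeR adjusted p = 0.158), and of these 5 genes Gipc2 was called (0.73, adjusted p = 0.0493). No gene was on both lists, and since the libraries fall into 2 ages, a gene that differs between them tends to correlate with Cers4.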

How the data were processed

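Buccal epithelium had been separated with dispase II, and FACS-sorted epithelial cells gave the RNA for stranded total RNA libraries with ribosomal RNA depletion, per the labels' protocols. Raw counts per gene were deposited by the authors for the 8 libraries. The authors also deposited normalized signal (counts divided by 1 size factor per library), log2 fold changes with standard errors, a Wald score and p-values. Per the submitters' processing notes, the tools were TopHat2 2.1.1 and HTSeq 0.6.0 on GRCm38, with cutadapt 2.10, DESeq2 1.26.0 and bcl2fastq 2.20.0.422 (roles and order not given). The annotation release and the strand setting are not given in the sources used here.

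Testing used the counts and edgeR 4.0.16 under R 4.3.3 (filterByExpr, at least 10 counts and 15 in total, TMM scaling, quasi-likelihood F test, Benjamini-Hochberg adjustment over all genes tested, called under 0.05). SE came from the F statistic, and 95% intervals from the t distribution with its degrees of freedom. CPM are TMM-scaled, and errors of CPM are SD over 4 animals. Lengths, exon overlaps and GC content came from GENCODE M21, which held 99.8% of the genes by identifier. A length and GC offset used splines of 4 degrees of freedom each in every library. Alternatives included limma-voom (limma 3.58.1) and the DESeq2 1.42.0 Wald test. The fit was tested on simulated counts, where it recovered 35.8% of 1.5-fold, 71.4% of 2-fold and 87.3% of 4-fold changes, with 7 false calls. A gene that was not called may therefore still differ, also by as much as 1.5-fold or 2-fold. Promoters are RefSeq entries of GRCm38.p6, matched by symbol. Libraries of 11747783 to 16807773 counts gave the members 893 to 6389 counts summed over all libraries. No 2 libraries of an age agreed within sampling noise.

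The 10 members, the pathway and marker lists and the tests were chosen with earlier results of these data known. All members are named, with every called pathway gene, the 2 most abundant tested genes of each pathway list, called or near-absent markers, and the 5 genes most correlated with Cers4 and with Cers3 among those with a mean of at least 5 CPM. Pnpla1, Smpd2, Sphk1, Sdr9c7, Elovl5, Sptssa, Krt14, Itgb4 and Top2a, and the untested Cers1 and Fa2h, were named after their values were seen.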

Additional observations from a re-analysis of the deposited data

Results flagged for a closer look

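Ugcg in the library 1 week 4 stood apart from the other libraries of its age, at 9.86 CPM against 8.48, 8.64 and 8.61 CPM. The gap was larger, relative to the range of the 4 libraries, than the 95% critical value of Dixon's test allows. Of 18 sets of 4 libraries examined this was the 1 that passed, and chance passes about 1 in 20. Ugcg was not called with or without this library.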

How the results depend on the processing

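Cers4 and Cers6 kept their direction under all 19 alternatives, Cers4 with log2 fold changes of 0.643 to 1.004 and Cers6 of 0.445 to 0.735, and were called except, with 2 libraries of an age left out, Cers6 without either pair and Cers4 without 8 weeks 1 and 8 weeks 3. Members called numbered 3 with library size alone, with a filter of at least 5 CPM in 4 libraries and with the DESeq2 Wald test (Cers3 added, adjusted p = 0.0331, 0.044 and 0.03), 1 without 1 week 1 and 1 week 4, and 0 without 8 weeks 1 and 8 weeks 3, an alternative chosen after seeing the data. Genes called numbered 592 with no filter, 2069 with DESeq2, 161 with a replicate block, 406 with the length and GC offset, 60 and 12 without those pairs, and 91 to 1891 with 1 library left out. Other pathway genes called numbered 5 with DESeq2, 0 with library size alone, no filter, the replicate block, the length and GC offset and either pair left out, and 0 to 4 with 1 library left out. Libraries with the same number in their titles did not deviate together (correlations of -0.362, -0.165, -0.115 and -0.162). This looked at title numbers alone, and whether libraries share a batch in another way was not tested. Cers4 and Cers6 were called with the block. Library size alone moved the median of all genes by 0.09. Some small changes turned sign. With library size alone these were Cers2 (0.015), Cers5 (0.072), Sptlc1 (0.058), Cyp4f39 (0.061), Psap (0.012) and Sgpp1 (0.026). With the length and GC offset they were Cers2 (0.048), Cers5 (0.061), Sptlc2 (-0.121), Abca12 (-0.058), Sptlc1 (0.073), Kdsr (-0.060), Cyp4f39 (0.045) and Gltp (0.008). Without 1 week 1 and 1 week 4 it was Abhd5 (0.027), and without 8 weeks 1 and 8 weeks 3 Cers2 (0.033), Cers5 (0.083), Sptlc1 (0.032), Cyp4f39 (0.035), Psap (0.023) and Sgpl1 (0.005). With 1 library left out the log2 fold change ran from -0.076 to 0.059 for Cers5, -0.001 to 0.104 for Sptlc2, -0.072 to 0.014 for Sptlc1, -0.012 to 0.125 for Kdsr and -0.079 to 0.041 for Cyp4f39, and the ratio of Cers5 to Cers2 from -0.008 to 0.103. None of these was called in any setting, and the cause of the turns was not tested. With 1 library left out the exact test of a ratio cannot go below p = 0.0571, so those settings say nothing on whether a ratio passes, and with all 8 libraries none passed after adjustment. Among the 9 members the intervals were widest for Ugcg and Abca12, and wider still for pathway genes of few counts such as Sdr9c7 (-2.32 to 0.32, 141 counts).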
